A study of Danio rerio with 16 samples.

Results

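The mitochondrial ribosomal protein genes of the zebrafish (Danio rerio) were read in whole embryos at 48 h post fertilization (hpf). Members were taken by symbol: every gene of the count table whose Ensembl gene name, in any letter case, begins with mrpl or mrps followed by a digit. This rule found 73 of 32266 genes, 46 named for the large subunit (mrpl) and 27 for the small subunit (mrps). Each of the 73 passed the filter on low counts, and no symbol was carried by more than 1 identifier. Symbols are printed as the gene table gives them, in lower case for 20 members. MRPL22 and MRPS15 match the rule in the gene table but were not analysed here.

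The embryos were of the Tropical 5D line and had been injected with a morpholino, a synthetic antisense oligomer that pairs with an RNA. It was directed either at the long noncoding RNA slincR or was a control. At about 6 hpf the embryos were exposed for 1 h to TCDD (2,3,7,8-tetrachlorodibenzo-p-dioxin, 1 ng/mL), which activates the aryl hydrocarbon receptor, or to the vehicle, 0.1% dimethyl sulfoxide (DMSO). The dose is that of the sample labels, and the molar value that the protocol sets beside it does not correspond to it. The 4 groups are slincR morphants with TCDD (slincRMO_TCDD), slincR morphants with DMSO (slincRMO_DMSO), control morphants with TCDD (ConMO_TCDD) and control morphants with DMSO (ConMO_DMSO). Each group has 4 biological replicates, per the labels, and each sample pools 20 embryos, so all embryos had been injected and none was untreated.

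Mitochondria make a small set of proteins of the respiratory chain and the ATP synthase on their own ribosomes. The RNA of these ribosomes comes from mitochondrial DNA, while every ribosomal protein is encoded in the nucleus, made in the cytosol and imported. In the large subunit the peptide bond is formed and the new chain leaves through a tunnel next to the inner membrane. The small subunit binds the messenger RNA and holds the decoding site. Some of the proteins have counterparts in the bacterial ribosome and others occur only in mitochondria. In humans, mutations in several of these genes, among them MRPS16, MRPS22, MRPL3 and MRPL44, cause severe deficiency of the respiratory chain.

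Libraries held 14977267 to 23142081 counts in genes, of which the 73 members took 12053 to 19942 counts, or 0.0776% to 0.0958%. The lowest count of any member in a library was 9, for mrpl20. Levels are CPM, counts scaled to a common library size, and averaged 1.40 to 54.0 CPM over all samples, with a median of 8.95 CPM. No length of transcript was used, so levels are not ranked between genes. TCDD exposure was visible in cyp1a, the standard target of the aryl hydrocarbon receptor, at 1850 ± 203 CPM in slincRMO_TCDD and 11.1 ± 1.29 CPM in slincRMO_DMSO, and at 1949 ± 85.4 CPM in ConMO_TCDD and 12.7 ± 1.89 CPM in ConMO_DMSO (SD, n = 4). The gene table pairs no identifier with slincR, so the morpholino labels were not checked by its level.

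No mitochondrial ribosomal protein gene passed the test in any contrast. Most members had slightly negative log2 fold changes, with medians over all members between −0.14 and −0.06 for TCDD and for the slincR morpholino. In the large and in the small subunit these medians lay between −0.17 and −0.05. A score per library shows the size of that shift: each member's log2 CPM was centred on its own mean over the 16 libraries, and the centred values were averaged over the members. It was −0.20, −0.22, −0.06 and −0.05 in slincRMO_TCDD replicates 1 to 4 and 0.03, 0.03, 0.09 and −0.05 in slincRMO_DMSO. In control morphants it was −0.03, −0.05, 0.16 and −0.08 in ConMO_TCDD and 0.06, 0.12, 0.06 and 0.19 in ConMO_DMSO.

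The slincRMO_TCDD libraries therefore held the lowest mean score, −0.13 ± 0.09, followed by ConMO_TCDD at 0.00 ± 0.11, slincRMO_DMSO at 0.02 ± 0.06 and ConMO_DMSO at 0.11 ± 0.06 (SD, n = 4). The ConMO_TCDD and slincRMO_DMSO means lie within their spread. In slincRMO_TCDD the low mean rests mostly on replicates 1 and 2, in which 60 and 61 of 73 members lay below their own mean. In ConMO_TCDD, replicate 3 lay apart on the high side, with 58 of 73 members above their mean, against 29 to 34 members in replicates 1, 2 and 4. ConMO_DMSO replicate 4 was the highest library, with 59 members above their mean.

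**Figure D1:**
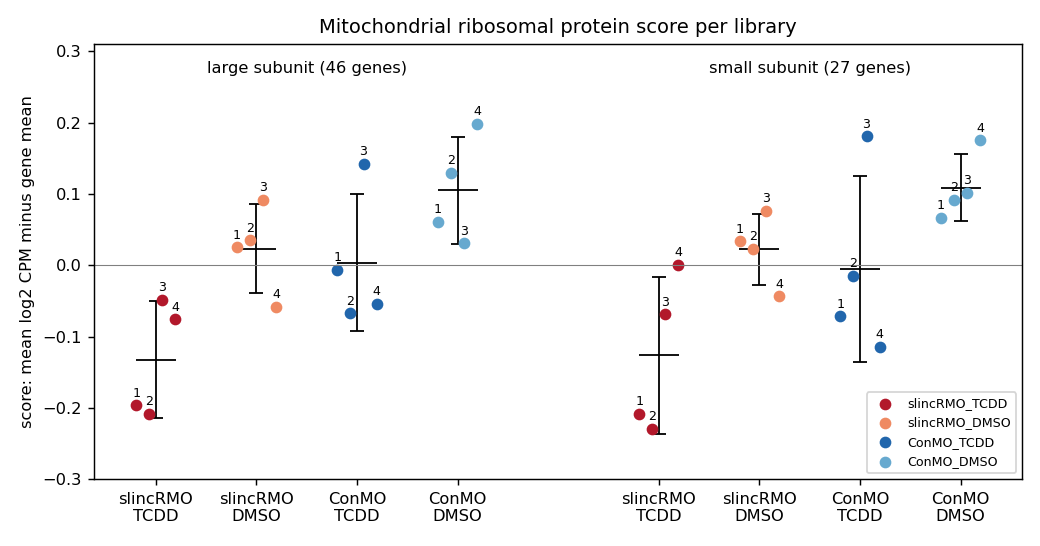
Score of the mitochondrial ribosomal protein genes in each library (log2 units), for 46 large subunit genes on the left and 27 small subunit genes on the right. Points are libraries labelled with the replicate number, and bars give the mean and SD of 4. Replicates 1 and 2 of slincRMO_TCDD are lowest in both subunits, and ConMO_TCDD replicate 3 stands above the others of its group.

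The share of reads outside genes, a property of the library, moved with the score in part. In ConMO_TCDD, replicate 3 had 13.4% of its entries outside genes, and replicates 1, 2 and 4 had 15.8% to 16.1%. The slincRMO_TCDD libraries had 15.2%, 14.7%, 14.5% and 12.8%, and their lowest scores were those of the libraries with 15.2% and 14.7%. Replicates 2 and 3 of that group, however, had scores of −0.22 and −0.06 at 14.7% and 14.5%. In slincRMO_DMSO the lowest score was in replicate 4, which had 15.2%. The ConMO_DMSO libraries had 15.0%, 12.8%, 14.3% and 14.4%, and there the score did not follow the share. Its highest score, 0.19, was at 14.4%, while the library with 12.8% had 0.12. A fit with this share as a covariate is given beside the results it touches, and its part in the shift was not tested otherwise.

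The scores of large and small subunit genes lay close together in some libraries and further apart in others. The widest gap was in slincRMO_TCDD replicate 4, at −0.08 for the large and 0.00 for the small subunit. In ConMO_DMSO replicate 3 they were 0.03 and 0.10. The large subunit score minus the small subunit score stayed between −0.08 and 0.07 in every library, and its group means were −0.01 ± 0.05 in slincRMO_TCDD, 0.00 ± 0.02 in slincRMO_DMSO, 0.01 ± 0.06 in ConMO_TCDD and 0.00 ± 0.05 in ConMO_DMSO (SD, n = 4). The SD of this difference within groups was 0.05, below the 0.08 of the large subunit score and the 0.09 of the small subunit score. All 4 group means of the difference were thus smaller than its spread between replicates.

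**Figure D2:**
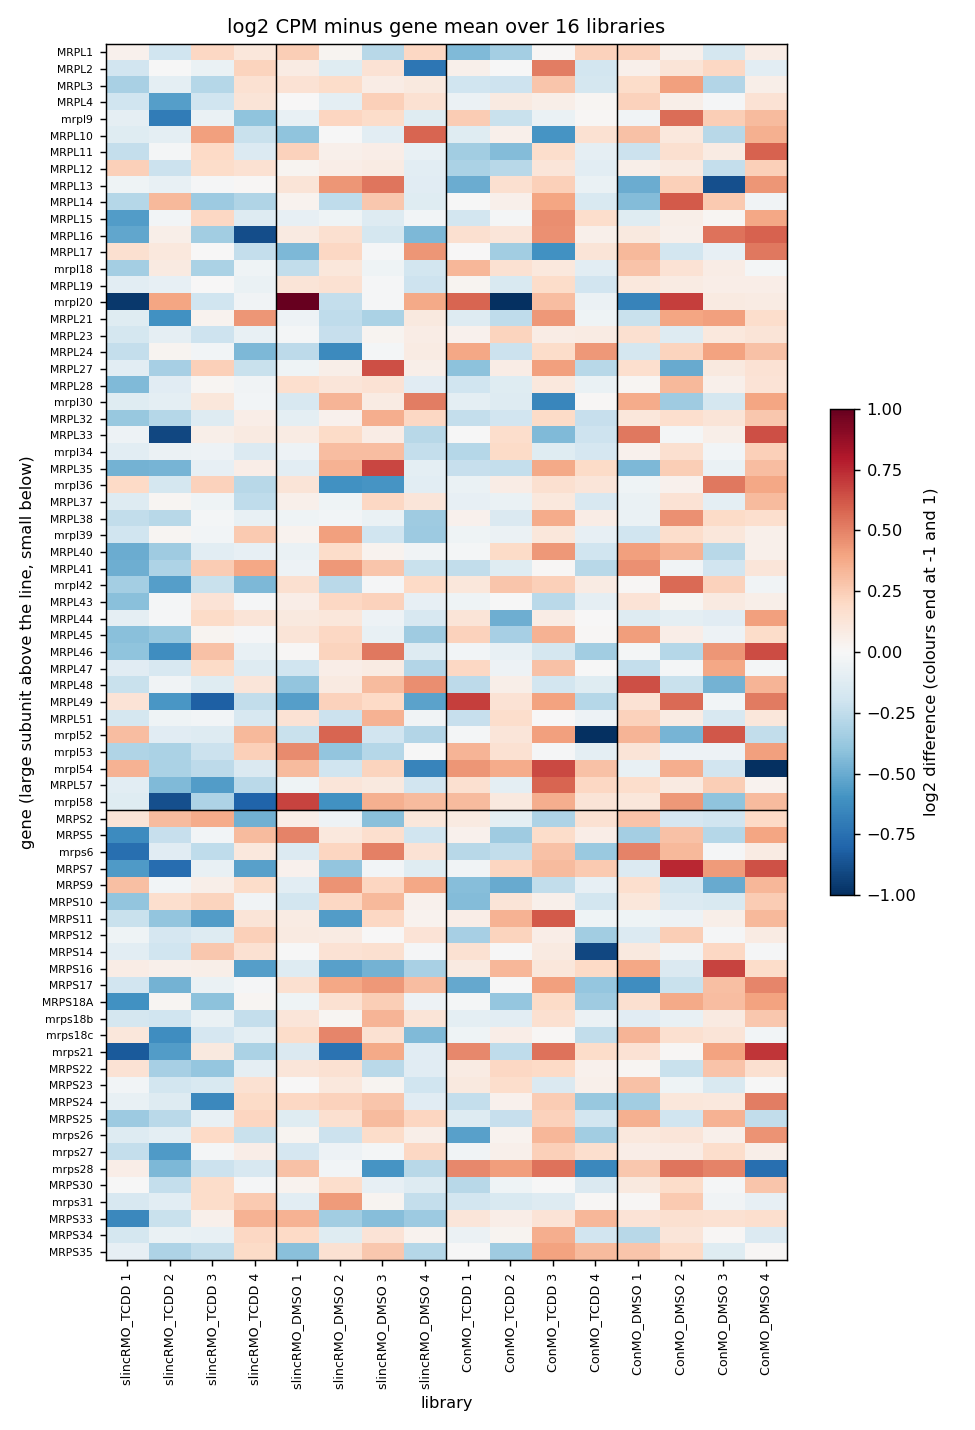
Each row is a member (large subunit above the horizontal line, small subunit below) and each column a library. Colour gives log2 CPM centred on each gene's mean of 16 libraries, red above and blue below, and the scale ends at −1 and 1. Blue is most frequent in slincRMO_TCDD replicates 1 and 2 and red in ConMO_DMSO replicate 4, while single genes of low level, such as mrpl20, show the deepest colours.

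The members differed in their scatter between replicates. The SD of log2 CPM within groups had a median of 0.25 over the members, against 0.23 over all genes tested, and ran from 0.11 for MRPL23 to 0.68 for mrpl20. MRPL23, whose bacterial counterpart lies at the exit of the peptide tunnel, had 28.0, 29.7, 27.3 and 30.1 CPM in slincRMO_TCDD, 31.2, 26.9, 32.2 and 33.3 in slincRMO_DMSO, 32.6, 36.9, 33.2 and 33.4 in ConMO_TCDD, and 35.4, 28.9, 34.0 and 34.6 in ConMO_DMSO. By contrast mrpl20 spread over 0.705 to 1.98 CPM in slincRMO_TCDD, 1.24 to 3.34 in slincRMO_DMSO, 0.463 to 2.28 in ConMO_TCDD and 0.893 to 2.46 in ConMO_DMSO. The next widest, mrps28 and mrpl52, each had an SD of 0.47 and, like mrpl20, group means under 3 CPM.

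TCDD against DMSO in control morphants asks how the members respond to TCDD when slincR is not targeted. None of the 73 members passed at a Benjamini-Hochberg adjusted p under 0.05 in the edgeR quasi-likelihood test, where 0.62% of the 20630 genes tested did. At an unadjusted p under 0.05 there were 5 members, against 11.2% of all genes, and DESeq2 and limma-voom called 0. The 5 became 2 without ConMO_DMSO replicate 4. They became 3 without scaling factors or without ConMO_TCDD replicate 1 or 2, slincRMO_DMSO replicate 2 or slincRMO_TCDD replicate 3. They became 8 without ConMO_TCDD replicate 3 and 10 without ConMO_DMSO replicate 3. The share of all genes under that p moved too. It was 8.396% where 2 members remained, 8.665% to 11.03% where 3 did, 12.52% where there were 8 and 13.3% where there were 10. Log2 fold changes were negative for 54 of 73 members, against 49.9% of all genes, with a median of −0.12, against 0.00 over all genes. The median was −0.11 in large subunit genes, 35 of 46 negative, and −0.12 in small subunit genes, 19 of 27 negative.

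The smallest p values in this contrast belonged to MRPS18A and MRPS30, both named for the small subunit. In the mammalian particle both proteins sit in the large subunit, which their symbols do not show. MRPS18A had 8.06, 6.23, 9.32 and 6.37 CPM in ConMO_TCDD and 9.15, 10.6, 10.1 and 10.8 CPM in ConMO_DMSO. Only ConMO_TCDD replicate 3 reached into the range of the DMSO libraries, and the log2 fold change was −0.45 ± 0.16 (SE; edgeR adjusted p = 0.273). MRPS30 had 18.9, 22.2, 22.8 and 20.7 CPM in ConMO_TCDD and 24.5, 26.0, 22.6 and 27.7 CPM in ConMO_DMSO, a log2 fold change of −0.26 ± 0.11 (SE; edgeR adjusted p = 0.379).

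MRPL32, a zinc-binding protein whose maturation by a membrane protease is known from yeast and mouse, had 14.4, 14.8, 19.3 and 14.4 CPM in ConMO_TCDD and 18.3, 19.0, 18.6 and 20.5 CPM in ConMO_DMSO. Again the value of ConMO_TCDD replicate 3 alone overlapped the DMSO libraries, at a log2 fold change of −0.28 ± 0.13 (SE; edgeR adjusted p = 0.418). MRPL43 was the only member whose groups did not overlap, at 14.3 to 17.3 CPM in ConMO_TCDD and 17.6 to 19.1 CPM in ConMO_DMSO, where 2.66% of all genes did not overlap on the low side and 2.93% on the high side. Its log2 fold change was small, −0.18 ± 0.12 (SE; edgeR adjusted p = 0.601).

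In the other direction mrpl54, a large subunit protein of low level, had the largest positive value at 0.63 ± 0.30 (SE; edgeR adjusted p = 0.439), with 2.60, 2.47, 3.05 and 2.34 CPM in ConMO_TCDD and 1.79, 2.46, 1.65 and 0.787 CPM in ConMO_DMSO. Both groups overlapped at 2.34 to 2.46 CPM. The largest negative values of the large subunit were −0.44 ± 0.21 in MRPL33 and −0.40 ± 0.24 in MRPL46, and those of the small subunit were in MRPS18A and in mrps6, at −0.37 ± 0.18 (SE). After mrpl54 the largest positive value of the large subunit was 0.10 ± 0.15 in MRPL57, and those of the small subunit were 0.20 ± 0.21 in MRPS11 and 0.11 ± 0.15 in MRPS34 (SE). MRPL57 and MRPS34 turned to −0.044 and −0.0098 without ConMO_TCDD replicate 3. Without that library the median of the members was −0.18. When the share of reads outside genes entered as a covariate the median was −0.03, and MRPL17 was then called lower at −0.60 (edgeR adjusted p = 0.0248, against 0.453 without the covariate). That fit called 283 genes in all, against 128 without the covariate.

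The stalk of the large subunit recruits translation factors and is built from MRPL10, MRPL11 at its base, and MRPL12. All 3 had negative values with TCDD in control morphants: −0.24 ± 0.19, −0.34 ± 0.17 and −0.18 ± 0.12 (SE), with edgeR adjusted p = 0.666, 0.459 and 0.594. MRPL12 had 20.5, 21.0, 27.8 and 23.7 CPM in ConMO_TCDD and 26.7, 27.3, 21.6 and 30.1 CPM in ConMO_DMSO, so its groups overlapped. In slincR morphants the stalk genes had −0.05 ± 0.19, −0.11 ± 0.17 and 0.08 ± 0.12 (SE).

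TCDD against DMSO in slincR morphants gave a similar picture from libraries that the control contrast does not share. None of the 73 members passed in edgeR, against 0.383% of all genes, and DESeq2 and limma-voom called 0. At an unadjusted p under 0.05 there were 9 members, each with a negative value, against 6.91% of all genes in either direction. The 9 became 3 without slincRMO_DMSO replicate 3, 4 without slincRMO_TCDD replicate 2, 5 without slincRMO_TCDD replicate 1 and 14 without slincRMO_TCDD replicate 4. In the same order the share of all genes was 5.74%, 5.78%, 5.42% and 7.49%. Log2 fold changes were negative for 60 of 73 members, against 50.6% of all genes, with a median of −0.14 against 0.00. The median was −0.17 in large subunit genes, 37 of 46 negative, and −0.12 in small subunit genes, 23 of 27 negative.

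The smallest p value was that of mrps18b, a protein related to the bacterial S18. It had 14.7, 14.5, 15.9 and 14.1 CPM in slincRMO_TCDD and 18.1, 16.9, 21.2 and 18.2 CPM in slincRMO_DMSO. All TCDD libraries lay below all DMSO libraries, at a log2 fold change of −0.33 ± 0.11 (SE; edgeR adjusted p = 0.379). Its relatives had −0.30 ± 0.16 in MRPS18A and −0.32 ± 0.21 in mrps18c. MRPL40 and MRPS17 were the other members without overlap, 3 in all on the low side and 0 on the high side, against 2.37% and 2.86% of all genes.

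MRPS17, a primary binder of ribosomal RNA in bacteria, had 3.20, 2.61, 3.5001 and 3.65 CPM in slincRMO_TCDD and 4.11, 4.84, 4.99 and 4.58 CPM in slincRMO_DMSO, at −0.52 ± 0.24 (SE; edgeR adjusted p = 0.689). In control morphants the same gene had −0.12 ± 0.24 and overlapped widely, at 2.54 to 4.91 CPM in ConMO_TCDD and 2.34 to 5.20 CPM in ConMO_DMSO. The largest negative value of all was −0.82 ± 0.33 (SE; edgeR adjusted p = 0.564) in mrpl58, a peptidyl-tRNA hydrolase that frees stalled chains and is built into the large subunit. Its levels were 1.22, 0.676, 1.06 and 0.719 CPM in slincRMO_TCDD and 2.20, 0.840, 1.74 and 1.69 CPM in slincRMO_DMSO, near the bottom of what the members reach.

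Among the positive values in slincR morphants the largest were 0.29 ± 0.17 in MRPS16, 0.27 ± 0.19 in mrpl36, 0.18 ± 0.18 in MRPS2 and 0.13 ± 0.20 in MRPL2 (SE), and none passed. After mrpl58 and MRPS17, the next largest negative value of the large subunit was −0.54 ± 0.41 in mrpl20 and that of the small subunit −0.42 ± 0.18 in mrps6 (SE). MRPL32, named after its values in both TCDD contrasts were seen, had −0.31 ± 0.13 in slincR morphants (SE; edgeR adjusted p = 0.582). Its levels were 13.004, 13.9, 15.4 and 17.8 CPM in slincRMO_TCDD and 15.8, 17.5, 21.8 and 19.5 CPM in slincRMO_DMSO. The mrps6 values were 6.34, 9.90, 9.0004 and 11.6 CPM in slincRMO_TCDD and 9.77, 12.5, 15.2 and 11.9 CPM in slincRMO_DMSO, and 8.84, 9.06, 13.2 and 8.28 CPM in ConMO_TCDD and 15.2, 13.4, 10.7 and 11.4 CPM in ConMO_DMSO. Both genes had means lower with TCDD in both morphants, with overlapping libraries each time.

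Set side by side, both TCDD contrasts were negative in 45 of 73 members, 61.6%, and positive in 4, where 31.55% of all genes were negative in both. The share was 29 of 46 in large subunit genes and 16 of 27 in small subunit genes. Since 54 and 60 of 73 members were negative in the single contrasts, a high joint share follows from these counts alone. It does not show agreement gene by gene, which was not tested. The difference between the TCDD responses of slincR and control morphants was not called for any of the 73 members, or for any of the 20630 genes (0%), in edgeR. At an unadjusted p under 0.05 it held 0 members, against 2.99% of all genes, and DESeq2 and limma-voom called 0. Over the alternatives it held 0 to 4. It held 4 without ConMO_DMSO replicate 2 (4.11% of all genes) and with the share of reads outside genes as a covariate (5.10%). Its median was −0.05 over the members, −0.04 in large and −0.07 in small subunit genes, against 0.00 over all genes.

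Taking the 2 largest in each subunit, the differences between the TCDD responses on the negative side were mrpl58 at −0.90 ± 0.46, mrpl54 at −0.67 ± 0.43, MRPS11 at −0.41 ± 0.30 and MRPS17 at −0.40 ± 0.34. On the positive side, again 2 in each subunit, they were mrpl36 at 0.44 ± 0.27, MRPS16 at 0.41 ± 0.23, MRPL21 at 0.29 ± 0.34 and MRPS2 at 0.26 ± 0.25 (log2 differences ± SE, each with an edgeR adjusted p of 1). The 95% interval of this difference lay within 2-fold either way for 64 members and within 1.5-fold for 27, so larger differences are bounded for most members and smaller ones are not.

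**Figure D3:**
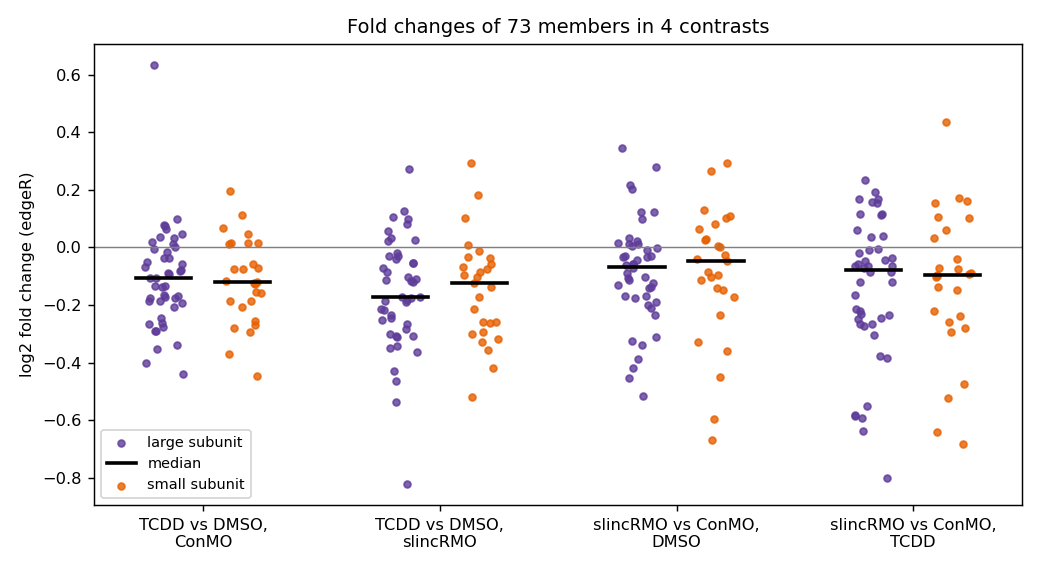
Log2 fold changes of the 73 members in 4 contrasts (edgeR), large subunit genes in purple and small subunit genes in orange. Each point is a gene and each black bar the median of its subunit, which lies between −0.17 and −0.05 in every contrast. No point passed the test at an adjusted p under 0.05.

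The slincR morpholino without TCDD, slincRMO_DMSO against ConMO_DMSO, compares the morphants in vehicle. None of the 73 members passed in edgeR, against 0.15% of all genes, and limma-voom called 0. DESeq2 called 1 member, among 95 calls over all genes. At an unadjusted p under 0.05 there were 5 members, each negative, against 9.11% of all genes. Without ConMO_DMSO replicate 3 there were 2, against 9.13% of all genes. Values were negative for 49 of 73 members, against 49.9% of all genes, with a median of −0.06 against 0.00. The median was −0.07 in large subunit genes, 33 of 46 negative, and −0.05 in small subunit genes, 16 of 27 negative.

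The gene that DESeq2 called was MRPS16, a small subunit protein with a bacterial counterpart that helps the platform and body of the subunit assemble. It had 10.5, 7.91, 8.30 and 9.21 CPM in slincRMO_DMSO and 15.1, 10.4, 18.6 and 13.1 CPM in ConMO_DMSO. The groups touched at 10.5 and 10.4 CPM, and the log2 fold change was −0.67 ± 0.16 (SE), with edgeR adjusted p = 0.135 and DESeq2 adjusted p = 0.0357. In TCDD the gene had 12.2, 11.98, 12.1 and 7.86 CPM in slincRMO_TCDD and 12.3, 14.6, 12.5 and 13.3 CPM in ConMO_TCDD, with a log2 fold change of −0.26 ± 0.16 (SE; edgeR adjusted p = 0.599). Without ConMO_DMSO replicate 2, whose 10.4 CPM was the lowest of its group, MRPS16 was called at −0.80 (edgeR adjusted p = 0.0284). Calls over all genes were then 52, against 31 with all libraries.

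MRPS7, which in bacteria organises the head of the small subunit, had 4.05, 2.97, 3.85 and 3.60 CPM in slincRMO_DMSO and 3.57, 6.72, 5.33 and 6.17 CPM in ConMO_DMSO, at −0.59 ± 0.21 (SE; edgeR adjusted p = 0.382). ConMO_DMSO replicate 1 alone lay among the slincR libraries. The largest negative values of the large subunit were −0.51 ± 0.19 in mrpl36 and −0.45 ± 0.27 in MRPL49. The largest positive values were 0.35 ± 0.23 in MRPL13, 0.29 ± 0.24 in MRPS17, 0.28 ± 0.41 in mrpl20 and 0.27 ± 0.15 in MRPS9 (SE), and no member's groups were free of overlap in either direction, against 2.05% of all genes on the low side and 2.11% on the high side.

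The slincR morpholino in TCDD, slincRMO_TCDD against ConMO_TCDD, compares the morphants after exposure. None of the 73 passed in edgeR, against 0.446% of all genes, and limma-voom called 0. DESeq2 called 1 member, MRPL57, among 249 calls over all genes. At an unadjusted p under 0.05 there were 13 members, 12 negative and 1 positive, against 10.8% of all genes. The 13 became 8 without ConMO_TCDD replicate 3, where 11.6% of all genes were under that p. They became 20 with the share of reads outside genes as a covariate, where 13.5% of all genes were. Values were negative for 53 of 73 members, against 50.7% of all genes, with a median of −0.09, −0.08 in large subunit genes (34 of 46 negative) and −0.10 in small subunit genes (19 of 27 negative). The median was −0.02 without ConMO_TCDD replicate 3, −0.16 without slincRMO_TCDD replicate 4, and −0.20 when the share of reads outside genes entered as a covariate.

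MRPL57, a large subunit protein found only in mitochondria, had 6.73, 5.31, 4.89 and 6.01 CPM in slincRMO_TCDD and 8.13, 6.79, 10.95 and 8.38 CPM in ConMO_TCDD. Every slincR library lay below every control library, although 6.73 and 6.79 CPM nearly meet. The log2 fold change was −0.58 ± 0.16 (SE), with edgeR adjusted p = 0.121 and DESeq2 adjusted p = 0.0426. With that covariate it was −0.66 (edgeR adjusted p = 0.0292), and over the 26 alternatives run its adjusted p spanned 0.0292 to 0.272. The covariate fit called 286 genes in all, against 92 without it.

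The next 3 members by p were mrpl42, MRPS7 and MRPL16. The first of them, mrpl42, is a large subunit protein of mitochondria and had 4.04, 3.48, 4.39 and 3.75 CPM in slincRMO_TCDD and 5.59, 6.28, 6.10 and 5.44 CPM in ConMO_TCDD, at −0.58 ± 0.17 (SE; edgeR adjusted p = 0.173). Its groups did not overlap, with 4.39 CPM as the highest slincR value and 5.44 CPM as the lowest control value. MRPS7 had 2.63, 2.27, 3.72 and 2.67 CPM in slincRMO_TCDD and 3.84, 4.58, 4.91 and 4.74 CPM in ConMO_TCDD, at −0.68 ± 0.21 (SE; edgeR adjusted p = 0.197). MRPL16, which in bacteria lies beside the site of peptide bond formation, had 6.21, 9.32, 7.0003 and 4.78 CPM in slincRMO_TCDD and 10.0, 9.73, 12.3 and 9.26 CPM in ConMO_TCDD, at −0.59 ± 0.19 (SE; edgeR adjusted p = 0.204). Its groups overlapped at 9.26 to 9.32 CPM.

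MRPS9, a head protein of the small subunit whose bacterial counterpart reaches towards the decoding site, was the exception in direction. It had 22.8, 18.2, 19.3 and 21.0 CPM in slincRMO_TCDD and 13.8, 13.1, 15.6 and 17.5 CPM in ConMO_TCDD, at 0.44 ± 0.16 (SE; edgeR adjusted p = 0.281). All slincR libraries were above all control libraries. In DMSO it had 17.2, 25.3, 21.5 and 24.2 CPM in slincRMO_DMSO and 20.8, 16.3, 13.03 and 23.3 CPM in ConMO_DMSO, with overlap.

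In this contrast 6 members lay without overlap on the low side, MRPL23, mrpl42, MRPL57, mrpl58, MRPS7 and MRPS16, and 1 on the high side, MRPS9. Of all genes 3.77% did so on the low side and 3.89% on the high side. MRPL23 had a log2 fold change of −0.24 ± 0.10 (SE; edgeR adjusted p = 0.335), with the levels given above. The largest negative values were −0.80 ± 0.34 in mrpl58, −0.64 ± 0.27 in MRPL49, −0.68 ± 0.21 in MRPS7 and −0.64 ± 0.24 in mrps21, and the largest positive ones besides MRPS9 were 0.24 ± 0.12 in MRPL12, 0.19 ± 0.17 in MRPL17 and 0.17 ± 0.14 in mrps31 (SE).

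**Figure D4:**
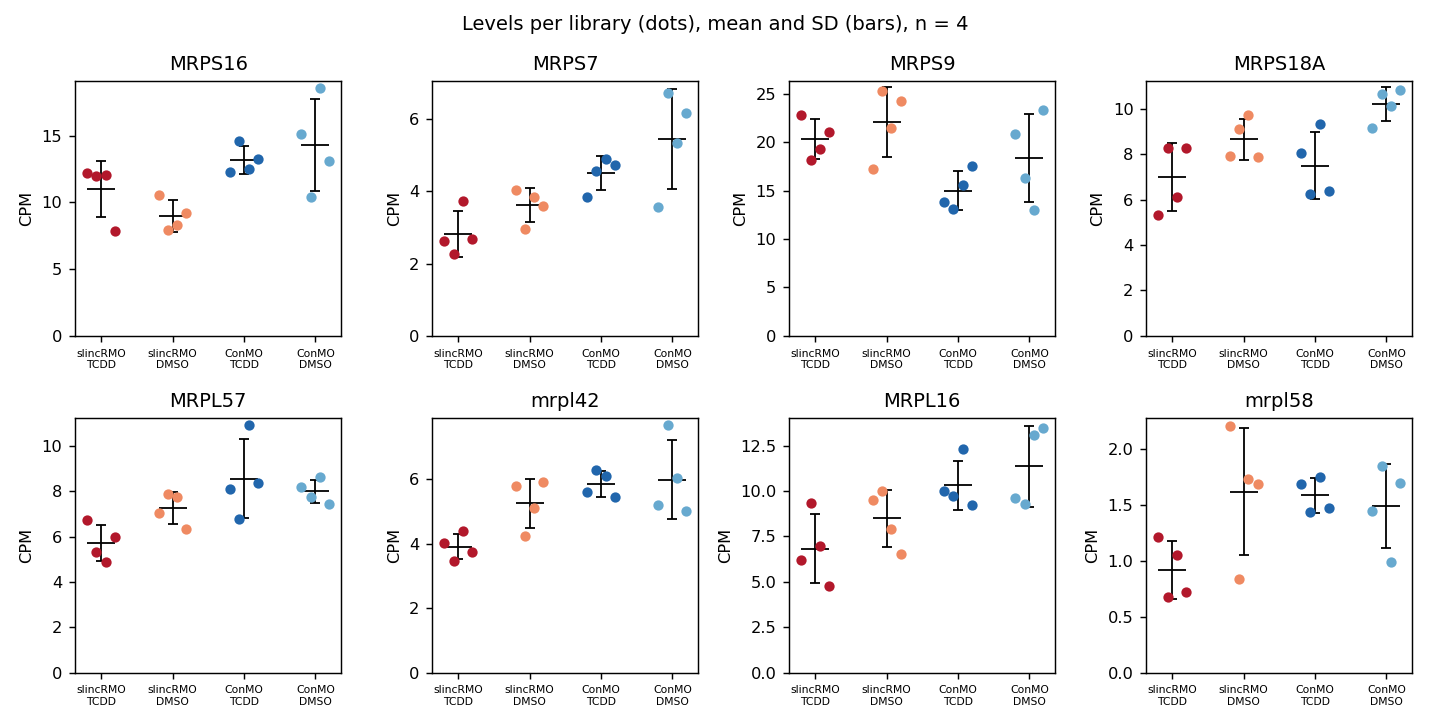
Levels (CPM, axes from 0) of 8 members in each library, by group, with the mean and SD of 4 as bars. MRPS7, MRPL57, mrpl42, mrpl58 and, by a narrow margin, MRPS16 are lower in every slincRMO_TCDD library than in every ConMO_TCDD library. MRPS9 is higher in every one. None of them passed the edgeR test.

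Another 5 members of known place or tied to human disease had values between −0.29 and 0.11 in the 4 contrasts. MRPS12, whose bacterial counterpart forms part of the decoding site, had −0.13 ± 0.14, −0.10 ± 0.14, 0.03 ± 0.14 and 0.06 ± 0.14 (SE) for TCDD in control morphants, TCDD in slincR morphants, slincR in DMSO and slincR in TCDD. MRPL44 had −0.09 ± 0.14, 0.06 ± 0.14, −0.03 ± 0.14 and 0.11 ± 0.14 in the same order, and MRPL3 had −0.17 ± 0.14, −0.25 ± 0.14, 0.01 ± 0.14 and −0.07 ± 0.14. MRPL45, which anchors the ribosome to the inner membrane in mammals, had −0.08 ± 0.17, −0.17 ± 0.18, −0.18 ± 0.17 and −0.26 ± 0.18. MRPS22 had 0.07 ± 0.15, −0.14 ± 0.15, −0.09 ± 0.15 and −0.29 ± 0.15. The smallest edgeR adjusted p among these 5 genes was 0.492, for MRPS22 with slincR in TCDD.

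The intervals show what size of change the design can bound. The 95% interval lay within 2-fold either way for 71 members with TCDD in control morphants, 70 with TCDD in slincR morphants, 68 for slincR in DMSO and 67 for slincR in TCDD. It lay within 1.5-fold for 48, 42, 51 and 48 members in the same order. The median standard error of a single gene was 0.17 in each of these contrasts.

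Counting the members by ancestry instead of subunit gave similar values. The 44 members with a bacterial counterpart had medians of −0.14 and −0.19 with TCDD in control and slincR morphants, and the 29 found only in mitochondria had −0.06 and −0.12. For slincR in DMSO and in TCDD these medians were −0.06 and −0.09 in the first set and −0.09 and −0.10 in the second. Placing MRPS18A and MRPS30 in the large subunit, as in the mammalian particle, gave 48 and 25 genes with medians of −0.12 and −0.12 with TCDD in control morphants. In slincR morphants they were then −0.17 and −0.12.

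By position in the RefSeq annotation of the assembly GRCz12tu, which is not the build of the counts, all 73 symbols were matched and lie on 22 chromosomes. Of the members 17, 23.3%, overlap another protein-coding gene, against 30.3% of all protein-coding genes, and 44, 60.3%, lie within 1000 bases of one, against 47.1%. MRPL46 and MRPS11 are each the nearest coding gene of the other. Their values with TCDD in control morphants were −0.40 ± 0.24 and 0.20 ± 0.21, and for slincR in TCDD −0.01 ± 0.24 and −0.52 ± 0.21 (SE; smallest edgeR adjusted p = 0.366). Whether counting used strand is not stated in the labels or headers, so the counts of members that overlap another gene, among them MRPL11, MRPL16, MRPL33, MRPL40, MRPL45 and mrps18b, are uncertain. The same limit holds for MRPS16, MRPS17, MRPS22, MRPS23 and mrps26, which overlap only genes not annotated as protein-coding.

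The other parts of the mitochondrial translation machinery were read from lists of symbols. Of 5 ribosomal proteins whose symbols the rule does not match, such as DAP3 and ptcd3 of the small subunit, 5 had negative values with TCDD in control morphants, and 0 passed in any contrast. Of 13 translation factors 11 were negative in that contrast, with a median of −0.21, among them GFM2, a factor of ribosome recycling, at −0.31 ± 0.13, and TUFM, the elongation factor that delivers tRNA, at −0.20 ± 0.10 (SE; edgeR adjusted p = 0.336 and 0.488). Of 23 genes for assembly and rRNA modification 19 were negative, with a median of −0.14. The 14 mitochondrial tRNA synthetases had a median of −0.01 there, and none of these lists held a gene that passed in any contrast. With TCDD in slincR morphants 3 of the 5 ribosomal proteins were negative (median −0.06) and 10 of 13 translation factors (−0.15). For assembly and rRNA modification 17 of 23 were negative (−0.05), and of the tRNA synthetases 9 of 14 (−0.06). Genes for mitochondrial DNA and RNA had medians of −0.05 in control and 0.02 in slincR morphants with TCDD, and regulators of mitochondrial gene expression −0.10 and 0.15.

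For slincR in TCDD 53 of 73 members were negative, while 9 of 13 translation factors were positive, with a median of 0.05. This lean was not particular to the translation factors. Positive were 8 of 14 mitochondrial tRNA synthetases (median 0.09), 9 of 14 genes for mitochondrial DNA and RNA (0.08) and 6 of 8 regulators of mitochondrial gene expression (0.07). Of the ribosomal proteins outside the rule 3 of 5 were positive (0.04), and of the genes for assembly and rRNA modification 11 of 23 (−0.01). TSFM, the exchange factor of TUFM, had 0.34 ± 0.13 (SE; edgeR adjusted p = 0.305) in that contrast. Without ConMO_TCDD replicate 3, 40 of 73 members were negative, with a median of −0.02. The other lists of this paragraph were not read with libraries left out, and the difference between lists was not tested.

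The messenger RNAs that these ribosomes translate are encoded in mitochondrial DNA. Of 13, 6 were negative with TCDD in control morphants (median 0.07) and 11 with TCDD in slincR morphants (−0.05). With slincR 8 were negative in DMSO (−0.03) and 11 in TCDD (−0.15). Among the 13, mt-atp8, a subunit of the ATP synthase, rose with TCDD in control morphants by 0.85 ± 0.20 on the log2 scale (SE; edgeR adjusted p = 0.0458), and the other 12 did not pass. For slincR in TCDD the same gene had −0.86 ± 0.20 (SE), with edgeR adjusted p = 0.0501. Both contrasts use the ConMO_TCDD libraries. The call for TCDD in control morphants held under 12 of 26 alternatives, with edgeR or alternative adjusted p between 0.00769 and 0.204, and that for slincR in TCDD was made under 10 of 26, between 0.00409 and 0.200. Among the alternatives that lost the control morphant call were DESeq2 (adjusted p = 0.0548), only the 8 samples compared (edgeR adjusted p = 0.0901), and leaving out ConMO_DMSO replicate 2 or 4 or ConMO_TCDD replicate 1, 2 or 3. In mitochondrial DNA this gene overlaps mt-atp6, so its count is uncertain.

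Of 92 nuclear respiratory chain subunits tested, 63 and 78 were negative with TCDD in control and slincR morphants, and 72 for slincR in DMSO. Medians were −0.07, −0.18 and −0.13 in that order. In these contrasts 0 passed in edgeR, and DESeq2 called 0, 2 and 1 lower, among 272, 166 and 95 calls over all genes. For slincR in TCDD 76 were negative, with a median over the list of −0.22, and 6 were called lower in edgeR. In the ATP synthase these were atp5f1e, by 0.94 ± 0.18, and atp5mc3b, by 0.43 ± 0.08 (log2, SE; edgeR adjusted p = 0.0165 each). In cytochrome c oxidase cox6a1 fell by 0.70 ± 0.14 and COX7A2 by 0.53 ± 0.11 (log2, SE; edgeR adjusted p = 0.0193 and 0.0219). NDUFB9 and ndufc1 of complex I fell by 0.62 ± 0.13 and 0.57 ± 0.13 (log2, SE; edgeR adjusted p = 0.0300 and 0.0437). These calls depended on single libraries: 0 genes were called lower without ConMO_TCDD replicate 3, slincRMO_TCDD replicate 1 or slincRMO_TCDD replicate 2, 1 without ConMO_TCDD replicate 1 or slincRMO_TCDD replicate 4, 2 without ConMO_TCDD replicate 2 and 4 without slincRMO_TCDD replicate 3. Where 0 were called, the list medians were −0.16, −0.18 and −0.21. Calls over all genes fell there too, from 92 to 43, 32 and 22. DESeq2 called 13 lower, and the fit with the share of reads outside genes called 18 lower and 1 higher. Over all genes they called 249 and 286.

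The ribosomal proteins of the cytosol had more negative medians with the slincR morpholino than those of mitochondria. Of 77 genes, 6 fell for slincR in DMSO and 30 for slincR in TCDD, where 0.15% and 0.446% of all genes were called. The cytosolic medians were −0.33 and −0.51, where the 73 mitochondrial genes had 0 and 0 calls and medians of −0.06 and −0.09. In DMSO the genes that fell included rps20 by 0.61 ± 0.10 (log2, SE; edgeR adjusted p = 0.0035), and in TCDD RPL35 by 1.07 ± 0.16 and RPS26 by 1.07 ± 0.18 (log2, SE; edgeR adjusted p = 0.00271 and 0.00337). A second identifier with the symbol RPS26 had −0.64 ± 0.10 in TCDD (log2, SE; edgeR adjusted p = 0.00297). The count in DMSO was 1 with only the 8 samples compared, 3 without scaling factors, 10 with no filter, 14 with DESeq2 and 26 with the covariate. Over all genes those settings called 17, 23, 54, 95 and 99 in the same order. On leaving out a library the list count was 2 to 14, and calls over all genes were 17 to 52. The list count was 2 without ConMO_DMSO replicate 3 or slincRMO_DMSO replicate 2, 3 or 4, 3 without ConMO_DMSO replicate 4, ConMO_TCDD replicate 1 or slincRMO_TCDD replicate 1, and 14 without ConMO_DMSO replicate 1. In TCDD the list count was 60 with the covariate and 47 with only the 8 samples compared, where calls over all genes were 286 and 180. It was lowest, at 17, 15, 12 and 11, without ConMO_TCDD replicate 1, ConMO_TCDD replicate 3, slincRMO_TCDD replicate 1 and slincRMO_TCDD replicate 2. Calls over all genes were then 39, 43, 32 and 22 in the same order, against 92 with all libraries.

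In edgeR 0 cytosolic genes were called with TCDD. DESeq2 called 1 in control and 2 in slincR morphants, among 272 and 166 genes in all. With TCDD the cytosolic medians were −0.07 in control and −0.26 in slincR morphants. In control morphants that median turned to 0.07 with the covariate, and leaving out a library moved it to −0.19 without ConMO_TCDD replicate 3, −0.14 without ConMO_DMSO replicate 1, −0.042 and −0.034 without ConMO_DMSO replicates 2 and 3, −0.020 without ConMO_TCDD replicate 2 and −0.021 without ConMO_TCDD replicate 4. Reads that align to several places were not counted, so cytosolic ribosomal protein levels are uncertain, and the difference between both lists was not tested.

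**Figure D5:**
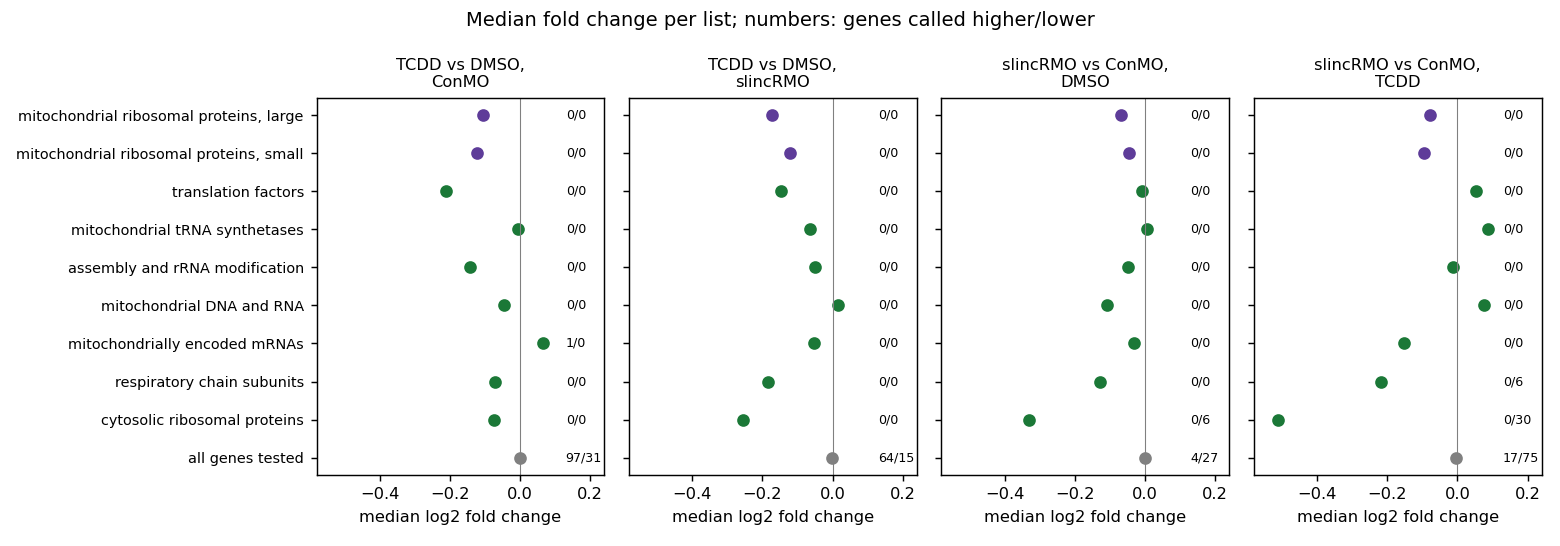
Median log2 fold change (horizontal axis) of 2 sets of mitochondrial ribosomal protein genes, 7 further lists and all genes tested, in 4 contrasts. The numbers at the right of each panel are genes called higher and lower at an adjusted p under 0.05. The mitochondrial ribosomal protein medians stay between −0.17 and −0.05, whereas cytosolic ribosomal proteins reach −0.51.

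Whole embryos mix tissues, and fewer cells of a type and less RNA per cell cannot be told apart in them. Markers of heart, a tissue rich in mitochondria, summed to 91.1 to 94.4 CPM in slincRMO_TCDD and 86.5 to 97.9 CPM in slincRMO_DMSO, against 106 to 114 CPM in ConMO_TCDD and 105 to 121 CPM in ConMO_DMSO over 5 genes. With slincR, 4 of these 5 were negative in DMSO and 5 of 5 in TCDD, and 0 passed. For skeletal muscle both of the markers found in the count table were negative with slincR in DMSO and in TCDD, and 0 passed. Erythroid markers summed to 945 to 1509 CPM in slincRMO_TCDD and 1461 to 1691 CPM in slincRMO_DMSO, against 1242 to 1592 CPM in ConMO_TCDD and 1648 to 2048 CPM in ConMO_DMSO over 4 genes. With TCDD 3 of these 4 were negative in control morphants and 4 of 4 in slincR morphants, and 0 passed. In liver, 6 of 6 markers were negative with TCDD in control morphants, and 5 of 6 in slincR morphants, with 0 calls. In lens, 4 of 4 were negative in both, and crygmx fell in slincR morphants by 0.53 ± 0.11 (log2, SE; edgeR adjusted p = 0.0298). That call held under 21 of 26 alternatives, with adjusted p between 0.00285 and 0.185, and was lost without slincRMO_DMSO replicate 2 or 3 or slincRMO_TCDD replicate 1, 2 or 3. Of 4 neuron, 6 skin epithelium and 4 endothelium markers 0 passed in any contrast. Endothelium markers were positive in 4 of 4 with TCDD in slincR morphants and for slincR in TCDD. Skin epithelium markers were positive in 5 of 6 with TCDD in control morphants and in 4 of 6 in slincR morphants. For slincR in TCDD 5 of 6 liver markers were positive, and 4 of 4 neuron markers were negative. No marker tested was at 0 throughout a group, and the part of tissue composition in the members' shifts was not tested.

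The authors' deposited tables of genes that changed with TCDD list 132 genes in control morphants and 80 in slincR morphants. Of the 73 members 0 are in either. The tables come from the same samples.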

How the data were processed

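RNA was measured by poly-A selected paired-end sequencing in 16 samples of 20 embryos. The deposited table holds raw counts per Ensembl gene. TopHat, HTSeq, SAMtools, FastQC and edgeR, and the build GRCz10, are listed per the submitters' processing notes. For versions, annotation release and strand setting, the sources used here give nothing. Entries in no gene (12.8% to 16.1%), not unique (24.4% to 29.4%) and ambiguous (0.274% to 0.332%) were left out of library sizes. The authors also deposited lists of changed genes with log2 fold changes, F scores, p-values, adjusted p-values and a −log10 p-value, per the file headers. Only the gene identifiers and symbols of these lists were used.

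Counts were scaled by TMM, and filterByExpr with a minimum count of 10 kept 20630 of 32266 genes. An edgeR 4.0.16 quasi-likelihood model in R 4.3.3 with a mean for each group was fitted to all 16 samples (12 residual degrees of freedom, biological coefficient of variation 14.0%). The 5 contrasts were adjusted by Benjamini-Hochberg over all genes tested, with a threshold of 0.05. Scores use log2 CPM with a prior count of 2, or 0.5 as an alternative. Fits were tested on simulated data. Alternatives were RLE, upper quartile and no scaling, DESeq2 1.42.0, limma-voom (limma 3.58.1), other filters, only the samples compared, a replicate block, the share of reads outside genes as a covariate, and each library left out. No pair of libraries had identical counts. Depth limits members of low level most, and counting error is part of the spread between replicates.

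The members and lists were chosen with earlier results of these data known, and the grouping by ancestry and the place in the mammalian particle were written with results in view. Members were named by a rule: those past the threshold, the 2 largest positive and 2 largest negative values per subunit and contrast at a mean of at least 1 CPM, the 3 largest within-group SDs, and 13 genes of known role or place. MRPL16, mrpl42, MRPL32, MRPL23, MRPL40, MRPL43, MRPL57 for slincR in TCDD, MRPL17 and MRPS30 for TCDD in control morphants and mrps18b for TCDD in slincR morphants were named after their values were seen. Examples named from the other lists were chosen after their values were seen, as were the alternatives run on those lists. No protein, promoter or genome sequence was used, so levels per length and promoter motifs are not analysed here.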

Additional observations from a re-analysis of the deposited data

Results flagged for a closer look

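Among the named members and the scores, 172 groups of 4 libraries were examined for a library far from the other 3, and 9 were found, where chance gives about 1 in 20. In slincRMO_TCDD, MRPS16 had 7.86 CPM in replicate 4, where the others had 11.98 to 12.2 CPM. MRPL10 had 26.3 CPM in replicate 3, where the others had 17.0 to 18.4 CPM. The large minus small subunit score of slincRMO_TCDD replicate 4 was −0.076, where the others had 0.012 to 0.021. In slincRMO_DMSO, mrpl52 had 3.51 CPM in replicate 2, where the others had 1.87 to 2.01 CPM.

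In ConMO_TCDD, replicate 3 was far above the rest in 3 members. These were mrps6 at 13.2 CPM against 8.28 to 9.06 CPM, MRPL3 at 26.4 CPM against 18.8 to 19.2 CPM, and MRPL32 at 19.3 CPM against 14.4 to 14.8 CPM. Replicate 4 of that group was low in mrps28, at 1.25 CPM against 2.73 to 2.99 CPM. In ConMO_DMSO, MRPL44 had 19.2 CPM in replicate 4, where the others had 13.2 to 13.5 CPM. In control and in slincR morphants 0 members had every TCDD library above every DMSO library, against 2.93% and 2.86% of all genes. Whether members moved in opposite directions in the morphants can therefore not be read from such groups.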

How the results depend on the processing

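The median over the members was negative under all 26 alternatives in the 4 contrasts of TCDD or morpholino, and under 22 of 25 for the difference between TCDD responses. Leaving out a library of a group outside a contrast hardly moved its median, so these alternatives are not independent. The range over them was −0.18 to −0.03 for TCDD in control morphants, −0.18 to −0.12 for TCDD in slincR morphants, −0.09 to −0.05 for slincR in DMSO, −0.20 to −0.02 for slincR in TCDD and −0.09 to 0.02 for the difference. When the share of reads outside genes was a covariate the medians were −0.026 for TCDD in control morphants and −0.20 for slincR in TCDD, with 1 member called in each. DESeq2 called 1 member for slincR in DMSO and 1 for slincR in TCDD, where 2 members had no adjusted p. Leaving out each library gave 0 to 1 members called for slincR in DMSO and 0 in the other contrasts; the cause was not tested.

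The adjusted p over the alternatives spanned 0.0248 to 0.807 for MRPL17 (TCDD in control morphants) and 0.0284 to 0.444 for MRPS16 (slincR in DMSO). The large minus small median, when each library was left out, spanned −0.070 to 0.063 for TCDD in control morphants, −0.081 to 0.013 for TCDD in slincR morphants, −0.05 to 0.02 for slincR in DMSO, −0.050 to 0.056 for slincR in TCDD and −0.011 to 0.11 for the difference.

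Signs turned for 4 named members when a library was left out, none of them called: for TCDD in control morphants MRPL57 (−0.044 to 0.20) and MRPS34 (−0.0098 to 0.19), for TCDD in slincR morphants MRPL2 (−0.037 to 0.23) and for slincR in DMSO mrpl20 (−0.069 to 0.56).

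Over all genes the calls for TCDD in control and in slincR morphants, slincR in DMSO and slincR in TCDD were 128, 79, 31 and 92. DESeq2 gave 272, 166, 95 and 249, only the 8 samples compared 69, 125, 17 and 180, and the covariate 283, 130, 99 and 286. Without a filter slincR in DMSO had 54. Leaving out a library gave 70 to 155, 61 to 114, 17 to 52 and 22 to 115.

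The correlation of deviations between same-numbered replicates ran from −0.178 to 0.134 over 16 pairs, 3 of them best with their own number. With 4 libraries per group this cannot settle whether same-numbered replicates shared a clutch or batch. With the replicate number as a block, 0 members were called, and the medians were −0.11 and −0.14 for TCDD in control and slincR morphants, −0.06 and −0.09 for slincR in DMSO and TCDD, and −0.05 for the difference.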
